A study of Chlorocebus aethiops with 24 samples.

Results

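Microtubules are hollow polymers of alpha- and beta-tubulin that give axons and dendrites their shape and serve as tracks inside the cell. Kinesins carry cargo along them mostly toward the plus end, cytoplasmic dynein and its activator dynactin move toward the minus end, and myosins move along actin filaments instead. In hippocampal neurons these motors and the proteins that stabilize, cap or sever the tracks are known for axon growth, migration and the transport of vesicles, mitochondria and messenger RNA. Genes of these families were taken by symbol alone, from rows whose annotation gives a single symbol, using the stems of the alpha-, beta-, gamma-, delta- and epsilon-tubulins, the kinesins, the cytoplasmic dyneins, the dynactins, the numbered myosins, the structural microtubule-associated proteins (MAPs), the plus-end binding proteins and the stathmins. TUBB3 and STMN2 were left out by the same rule. The rule found 54 of 11512 rows, a row being a probe set, that is, the group of short probes on the array that together measure one transcript. The 54 rows carry 53 symbols because KIF20B has 2 rows. No measured value entered the matching of symbols, but the members were chosen with earlier results of these data known. The authors' earlier filter also used measured values. It kept probe sets detected in at least 6 arrays and the one of highest mean per gene.

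By role, 22 rows are kinesins, 9 are dynein subunits, 8 are myosins, 4 are dynactins, 2 are plus-end binding proteins, 2 are stathmins, 1 is a structural MAP and 6 matched the tubulin stem. Of these last 6, TUBA4A, TUBB and TUBE1 are tubulins, while TUBGCP2, TUBGCP4 and TUBGCP6 are parts of the gamma-tubulin complex that nucleates microtubules. No row carried MAPT, MAP2, MAP6, TUBA1A, TUBB2B, TUBB4A, KIF1A, DYNC1H1, STMN1 or MYO5A as its symbol, so these well known neuronal genes were not analysed here. Of all rows, 8730 have 1 symbol, 88 have several and 2694 have none, and members among the last 2 kinds could not be found by this rule.

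The study asked how alcohol in the womb and age after birth bear on gene expression in the hippocampus of the vervet monkey, named Chlorocebus aethiops in the labels. All animals were male offspring of alcohol-preferring dams that drank voluntarily late in pregnancy, either an ethanol solution (fetal alcohol exposed, called FASD here) or an isocaloric sucrose solution (control). The left hippocampus was taken at 5 months or at 2 years of age, which gave 6 control and 5 FASD animals at 5 months and 6 control and 5 FASD animals at 2 years, each on 1 array. Number 6 of the controls of 5 months is 2 years old by its source name and 5 months old by the other 3 fields, which set its group. Of 2 arrays that the authors discarded and that hold no values, the one of 5 months is titled FASD animal 2, a number that a retained array also has, and its source name gives animal 4. The paper's supplement names the excluded arrays FASD5_1 and FASD2_5, and the retained FASD arrays of 5 months include no number 1.

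Values are log2 expression intensities from an array designed on the rhesus macaque, so a difference of 1 is a doubling. A vervet transcript can bind macaque probes more or less well, and for that reason groups were compared within a row. Levels of different rows were set side by side only to choose the row of highest mean in each role and to describe the markers. The tissue was whole hippocampus, in which fewer cells of a type and less RNA per cell cannot be told apart. The paper states that exposure of this kind gave fewer CA1 hippocampal neurons at 2 years in its earlier anatomical studies. The part of lost neurons in the members' differences was not tested. Among the hippocampal markers, the neuronal rows SYT1, NRGN and NEUROD6 averaged 13.02, 10.75 and 10.02. The interneuron row GAD1 averaged 10.41, and VIP was the other interneuron row. All values ran from 2.82 to 14.24. Rows were found for 3 of 9 pyramidal neuron, 5 of 10 oligodendrocyte, 4 of 7 astrocyte and 6 of 9 microglial markers. The 3 pyramidal rows had a median alcohol difference of -0.1053 at 5 months and -0.0086 at 2 years. At an unadjusted p under 0.05 by limma, 0 of the 3 were called at either age. The markers were not level between groups. At 5 months 3 of the 5 oligodendrocyte rows were higher in FASD animals at an unadjusted p under 0.05, beside 1.47% of all rows, and the mean deviation of the 5 ran from 0.039 to 0.498 in FASD animals and from -0.229 to 0.0209 in controls. For the 4 rows of oligodendrocyte precursors it ran from 0.133 to 0.363 and from -0.176 to 0.0423, with 1 row called. Neither pair of ranges overlapped, and the part of these cells in the members' differences at 5 months was not tested. Of the other markers at 5 months, 1 of 2 interneuron rows and 1 of 5 astrocyte rows were called lower, beside 3.36% of all rows. At 2 years 2 of 3 endothelial rows were called higher, beside 2.69%. So were 1 of 4 precursor, 1 of 6 microglial and 1 of 5 mural and fibroblast rows. Another microglial row and 1 of 2 rows of ependyma and choroid plexus were called lower, beside 3.35%. The part of any of these cells was not tested.

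Arrays of 3 animals stood apart from the others of their groups. They were animal 2 of the FASD group at 5 months, animal 2 of the controls at 2 years and animal 2 of the FASD group at 2 years, with array weights of 0.273, 0.379 and 0.413, where a weight is lower the more an array departs from its group over all rows. The mean size of the members' deviations from their group means was 0.208, 0.2 and 0.181 on these 3 arrays and lay between 0.0788 and 0.145 on the other 19. For 39 of the 54 members, or 72.2%, the highest or the lowest of all 22 values was on one of these 3 arrays, against 56.9% of all rows. The members described are therefore also given without them where a call or the size of a difference changed, a step chosen after seeing the data.

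**Figure D1:**
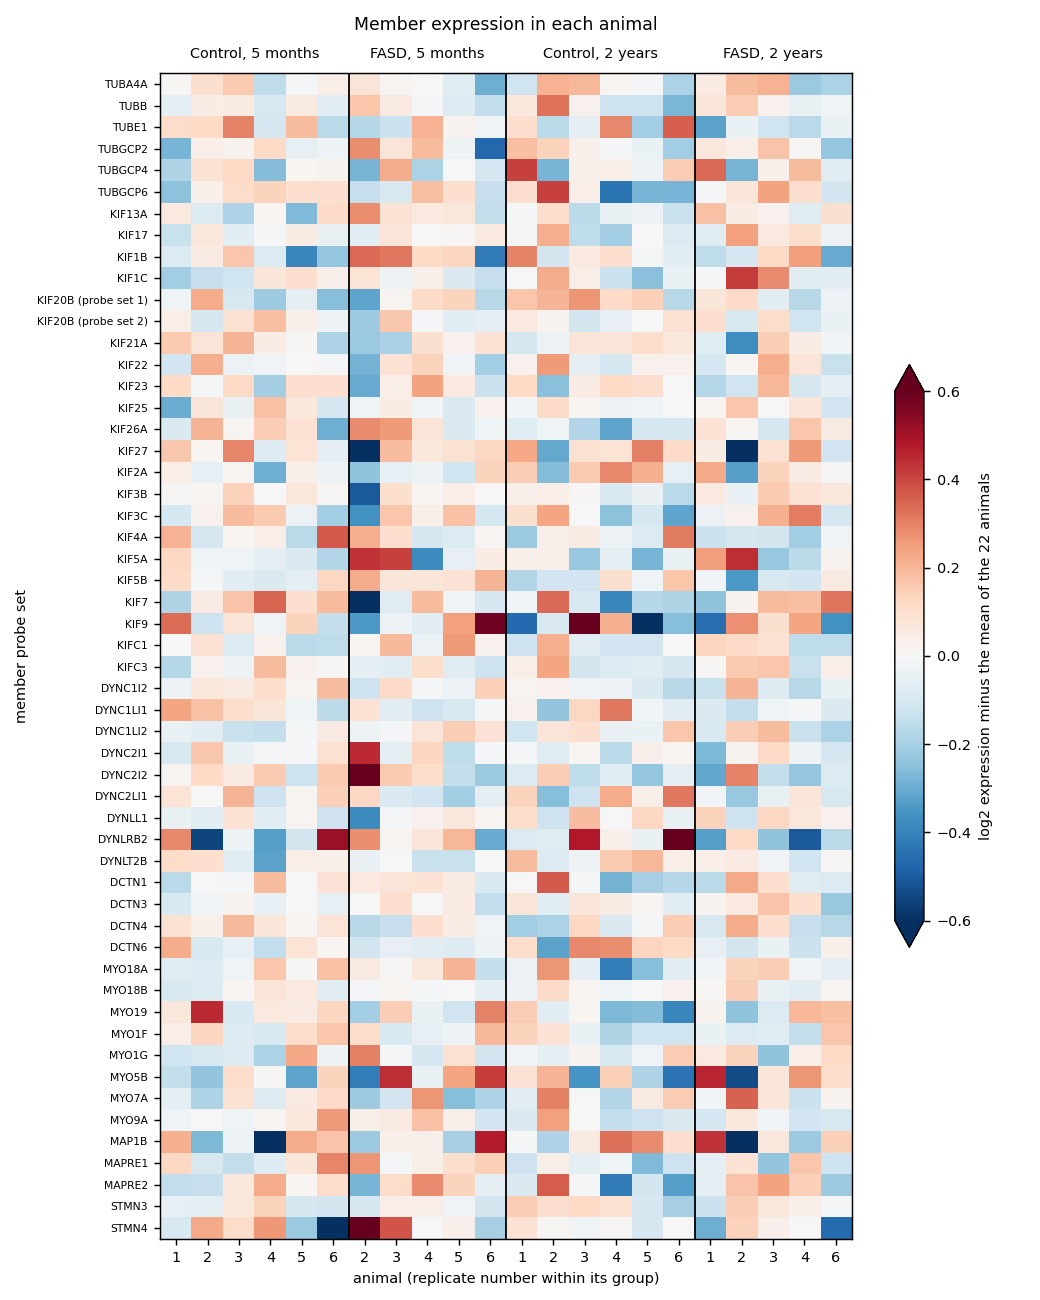
Log2 expression of the 54 members (vertical axis) in each of the 22 animals (horizontal axis, by group and replicate number), drawn as the difference from the mean over all animals, with colours ending at ±0.6. No block of rows changes colour at a group border, and several of the strongest colours sit in the columns of animal 2 of the FASD group at 5 months and at 2 years.

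The average over the family lay close to the same level in all 4 groups, which says little of single members, since these went both ways. Averaged over the 54 members, an animal's deviation from the overall mean ran from -0.0152 to 0.0341 in controls at 5 months and from -0.0322 to 0.0569 in FASD animals of that age. At 2 years the same average ran from -0.0553 to 0.0437 in controls and from -0.0552 to 0.0463 in FASD animals. The 4 ranges overlap almost wholly. The standard deviation of this average between the animals of a group, taken as the mean over the 4 groups, was 0.0333. The spread of a single member around its group means had a median standard deviation of 0.148, from 0.0646 for MYO18B to 0.367 for KIF9, close to the 0.158 of all rows.

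The first comparison asked which members differed with prenatal alcohol, as FASD minus control averaged over both ages. Of the 54 members, 27 were higher and 27 lower in FASD animals, with a median difference of 0.0016 on the log2 scale beside -0.0069 over all rows. The members ran from -0.17 for KIF27, a kinesin of motile cilia, to 0.18 for MYO5B, an unconventional myosin that carries recycling vesicles. A difference of at least 0.1 in size was seen in 10 members, or 18.5%, against 24.8% of all rows, and one of at least 0.2 in 0 members against 4.6% of all rows. The 95% interval of the difference lay within ±0.5 for all 54 members and within ±0.25 for 43 of them, or 79.6%, against 70.1% of all rows.

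By limma, with Benjamini-Hochberg adjustment over all 11512 rows, 0 members passed an adjusted p of 0.05 for alcohol, and 0 of all rows did. At an unadjusted p under 0.05 the count was 1 of 54 members, a share of 1.85%, beside 8.44% of all rows. Counted by direction, 1 member was higher beside 2.43% of all rows, and 0 were lower beside 6.01% of all rows. With all arrays the members' share was therefore below that of the table. Over 31 alternatives it was above it in 3 for alcohol, 0 for age and 7 for the interaction, and in 16 of 217 over all 7 comparisons.

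**Figure D2:**
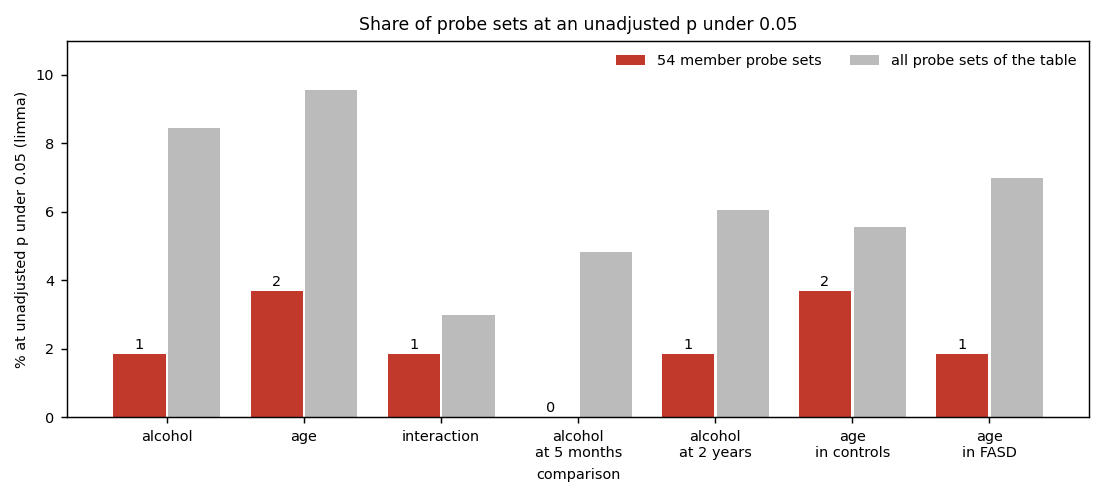
Share of probe sets at an unadjusted p under 0.05 by limma (vertical axis, percent) in each of the 7 comparisons (horizontal axis), for the 54 members in red and all 11512 rows in grey, with the number of members called above each red bar. The red bar is the lower of the pair in each comparison, for example 1.85% against 8.44% for alcohol.

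The member called for alcohol was KIF26A, a kinesin-related protein without motor activity of its own. At 5 months its log2 level in controls had a lowest value of 6.38, a median of 6.72 and a highest value of 6.88, and in the 5 FASD animals it was 6.96, 6.93, 6.75, 6.59 and 6.65. The groups overlapped, with 2 FASD animals above every control. At 2 years the controls had a lowest value of 6.36, a median of 6.57 and a highest of 6.65, and the FASD animals had 6.76, 6.69, 6.57, 6.84 and 6.73. In this age group 4 of the 5 FASD animals lay above every control.

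Over both ages KIF26A was higher in FASD animals by 0.13 (SE 0.06, 95% interval 0.01 to 0.26), a 1.10-fold difference, with an adjusted p of 0.59 by limma and an exact permutation p of 0.0392. The difference was 0.09 (SE 0.09) at 5 months and 0.18 (SE 0.09) at 2 years, and the exact permutation p was 0.413 at 5 months and 0.0195 at 2 years, where 0.00216 is the smallest that 462 arrangements allow. Without the 3 arrays that stood apart it was 0.13 (SE 0.07) over both ages and no longer called. At 2 years it was then 0.21 (SE 0.09) and called, which it was not with all arrays. With array weights it was 0.09 over both ages and not called. The call over both ages was also lost without any 1 of 10 arrays, namely those of control animals 1, 3 and 6 and FASD animals 2 and 3 at 5 months and of control animals 3 and 4 and FASD animals 1, 4 and 6 at 2 years, where the difference lay between 0.103 and 0.134.

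The count for alcohol depended on single arrays. It was 8 without control animal 2 at 2 years, a share of 14.8% beside 14.6% of all rows in that fit. It was 6 without control animal 4 at 5 months, 11.1% beside 10%. It was 3 without either control animal 6 or FASD animal 4 at 5 months, 5.56% beside 9.16% and 9.05%. It was 2 without control animal 5 or FASD animal 2 at 2 years, or without FASD animal 2 or 6 at 5 months. These 2 were 3.7% of the members, beside 6.86% to 9.61% of all rows. It fell to 0 when control animal 4, or animal 1 or 6 of the FASD group, was left out at 2 years. The same held when animal 3 of either exposure was left out at 5 months. All rows then had a share of 5.99% to 9.34%. Leaving out the 3 arrays that stood apart gave 5, with DYNC1LI1, DYNC2LI1 and DCTN6 lower and MYO5B and MAPRE2 higher, beside 12.5% of all rows, against 9.26% of the members.

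Of these 5, MYO5B moved most when the 3 arrays were left out, and it was singled out after its values were seen. Its difference went from 0.18 (SE 0.12) to 0.36 (SE 0.09), with an adjusted p of 0.23 by limma. On those arrays MYO5B read 6.53 (FASD, 5 months), 7.15 (control, 2 years) and 6.41 (FASD, 2 years). The other FASD animals read 7.39, 6.90, 7.18 and 7.36 at 5 months and 7.40, 7.02, 7.21 and 7.05 at 2 years. The controls ran from 6.63 to 7.08 at 5 months, with a median of 6.88, and the remaining controls of 2 years read 7.03, 6.59, 7.09, 6.76 and 6.50, so the groups overlapped with or without the 3 arrays. DYNC1LI1 and DYNC2LI1, light intermediate chains of cytoplasmic dynein and of the dynein of cilia, went from -0.10 (SE 0.06) to -0.13 (SE 0.06) and from -0.12 (SE 0.06) to -0.15 (SE 0.06).

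KIF27, at the other end of the range, shows the reverse. Its lowest values were 8.03 in FASD animal 2 at 5 months and 8.02 in FASD animal 2 at 2 years, while the lowest control was 8.56 and the highest 9.17, and without the 3 arrays its difference went from -0.17 (SE 0.12) to -0.03 (SE 0.06). The part of array quality in the difference seen with all arrays was not tested.

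The members best known from neurons, and the row of highest mean in several roles, were not called with all arrays. KIF5A, the neuronal heavy chain of conventional kinesin, was 0.15 higher in FASD animals (SE 0.09, adjusted p of 0.66 by limma), and 0.07 (SE 0.09) without the 3 arrays that stood apart. At 5 months its FASD values were 8.94, 8.92, 8.13, 8.46 and 8.55, around a control median of 8.46 (lowest 8.33, highest 8.63). At 2 years they were 8.76, 8.95, 8.28, 8.35 and 8.53, around a control median of 8.46 (lowest 8.23, highest 8.54). At both ages 2 FASD animals lay above every control, and at 5 months 1 lay below every control. The highest FASD value at each age, 8.94 and 8.95, was on an array that stood apart.

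MAP1B, which binds microtubules in growing axons, differed by -0.04 (SE 0.13) with alcohol and 0.03 (SE 0.13) with age, and its values ran widely within groups, from 7.23 to 8.14 in controls at 5 months and from 7.18 to 8.35 in FASD animals at 2 years. Without the 3 arrays that stood apart MAP1B differed by 0.05 (SE 0.12) and 0.12 (SE 0.12). DCTN1, the largest subunit of dynactin, differed by 0.04 (SE 0.07) with alcohol and -0.05 (SE 0.07) with age, the latter going to -0.12 (SE 0.05) and called without the 3 arrays. DYNLL1, the light chain that dynein shares with many other complexes, differed by -0.01 (SE 0.06) and 0.09 (SE 0.06), and TUBB, a widely expressed beta-tubulin, by 0.03 (SE 0.06) and 0.02 (SE 0.06). For TUBB the lowest and highest values over all 22 animals were 11.8 and 12.4, both in controls at 2 years. STMN3, which binds free tubulin dimers, differed by -0.01 (SE 0.05) with alcohol and 0.05 (SE 0.05) with age.

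**Figure D3:**
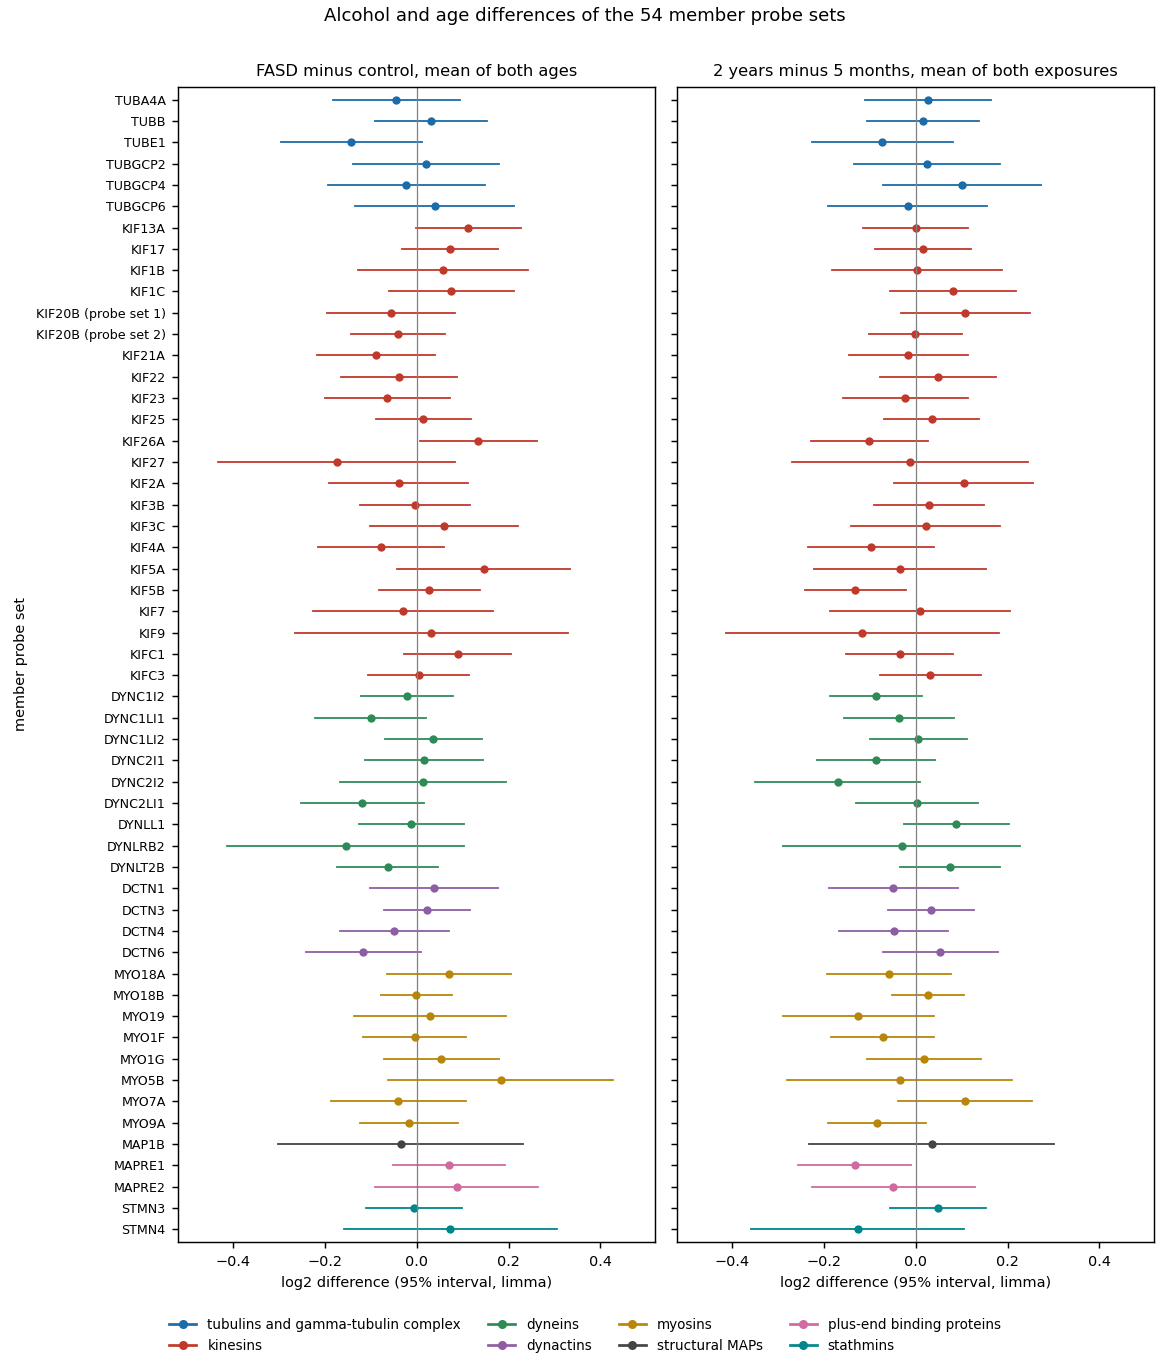
Log2 difference with its 95% interval by limma (horizontal axes) for each of the 54 members (vertical axis), coloured by role, for FASD minus control averaged over both ages (left) and 2 years minus 5 months averaged over both exposures (right). The intervals of KIF26A on the left and of KIF5B and MAPRE1 on the right lie to one side of 0, and each of the others includes it.

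The second comparison asked which members differed with age, as 2 years minus 5 months averaged over control and FASD animals. Of the 54 members, 26 were higher and 28 lower at 2 years, with a median difference of -0.0009 beside 0.0028 over all rows. They ran from -0.17 (SE 0.09) for DYNC2I2, an intermediate chain of the dynein of cilia, to 0.11 (SE 0.07) for the first row of KIF20B, a kinesin of dividing cells, which was 0.05 (SE 0.07) without the 3 arrays. A size of at least 0.1 was seen in 10 members, or 18.5%, against 25.1% of all rows, and of at least 0.2 in 0 members against 6.01%. The 95% interval lay within ±0.25 for 42 members, or 77.8%, against 70.3% of all rows.

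At an adjusted p of 0.05 by limma 0 members were called for age, beside 0.139% of all rows, which is 16 rows. At an unadjusted p under 0.05 the count was 2 of 54, a share of 3.7%, beside 9.57% of all rows. Both were lower at 2 years, beside 4.89% of all rows in that direction, and 0 were higher beside 4.68%. They were KIF5B, the heavy chain of conventional kinesin found in most cell types, and MAPRE1, which encodes the plus-end binding protein EB1.

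KIF5B had a lowest value of 11.33, a median of 11.38 and a highest value of 11.54 in controls at 5 months, and 11.24, 11.35 and 11.58 in controls at 2 years. The FASD animals read 11.64, 11.49, 11.49, 11.50 and 11.62 at 5 months and 11.40, 11.07, 11.32, 11.30 and 11.47 at 2 years. The controls of the 2 ages overlapped, although 3 controls of 2 years lay below every control of 5 months and 1 lay above them all, while the highest FASD value at 2 years, 11.47, lay just under the lowest at 5 months, 11.49.

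Averaged over exposures KIF5B was lower at 2 years by 0.13 on the log2 scale, as a difference of -0.13 (SE 0.05, 95% interval -0.24 to -0.02), with an adjusted p of 0.4 by limma and an exact permutation p of 0.0241. In FASD animals the difference was -0.23 (SE 0.08), 1.18-fold, with an adjusted p of 0.6 by limma and an exact permutation p of 0.00794, the smallest that 252 arrangements allow, and in controls it was -0.03 (SE 0.07). The difference between these 2 age effects was -0.20 (SE 0.11, adjusted p of 0.9997 by limma), so an unequal effect was not shown. FASD animals of 5 months were above the controls of that age by 0.13 (SE 0.07), with an adjusted p of 0.93 by limma and an exact permutation p of 0.039.

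KIF5B was the only member whose animals of 2 groups did not overlap, which 1.31% of all rows showed for age in FASD animals and 0.391% showed with 2 years lower. In the other 3 comparisons within a group or an age, 0 members were without overlap, beside 0.443% of all rows for alcohol at 5 months, 0.313% for alcohol at 2 years and 0.434% for age in controls. The array of FASD animal 2 at 2 years held the lowest KIF5B value of all. Without that array alone the age difference was -0.10 and no longer called, and without all 3 arrays that stood apart it was -0.08 (SE 0.05) over both exposures and -0.15 (SE 0.08) in FASD animals, neither of them called.

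MAPRE1 had a lowest value of 9.20, a median of 9.35 and a highest of 9.64 in controls at 5 months, and 9.08, 9.25 and 9.38 in controls at 2 years. In FASD animals it was 9.61, 9.34, 9.38, 9.45 and 9.49 at 5 months and 9.29, 9.43, 9.11, 9.51 and 9.22 at 2 years. The ages overlapped in both exposures. The difference was -0.13 (SE 0.06) over both, -0.12 (SE 0.08) in controls and -0.14 (SE 0.09) in FASD animals, with an adjusted p of 0.46 by limma and an exact permutation p of 0.0294 over both. Without the 3 arrays that stood apart it was -0.14 (SE 0.06) and still called, but the call was lost without any 1 of 7 arrays (control animals 1 and 6 and FASD animals 2 and 6 at 5 months, control animal 5 and FASD animals 3 and 6 at 2 years), where the difference lay between -0.129 and -0.107. MAPRE2, the related EB2, differed by -0.05 (SE 0.09), and by -0.15 (SE 0.07) without the 3 arrays, not called.

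The count for age was 6 without control animal 2 at 2 years, 11.1% beside 12.4% of all rows. It was 4 without control animal 6 of that age, 7.41% beside 10.6%, and also 4 without FASD animal 2 of that age. It was 3 without control animal 2 or 5 or FASD animal 4 or 5 at 5 months, 5.56% beside 9.03% to 9.9%. It was 1 without control animal 5 or FASD animal 3 or 6 at 2 years, or control animal 1 at 5 months. This was 1.85% beside 8.28% to 9.31%. For age the members' share was above that of all rows in 0 of the 31 alternatives. Leaving out the 3 arrays that stood apart gave 6, or 11.1%, beside 13.1% of all rows, with KIF2A higher at 2 years and DYNC1I2, DYNC2I2, DCTN1, MYO9A and MAPRE1 lower. MYO9A, an unconventional myosin, was then lower by 0.13 on the log2 scale, as -0.13 (SE 0.05), against -0.08 (SE 0.05) with all arrays.

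**Figure D4:**
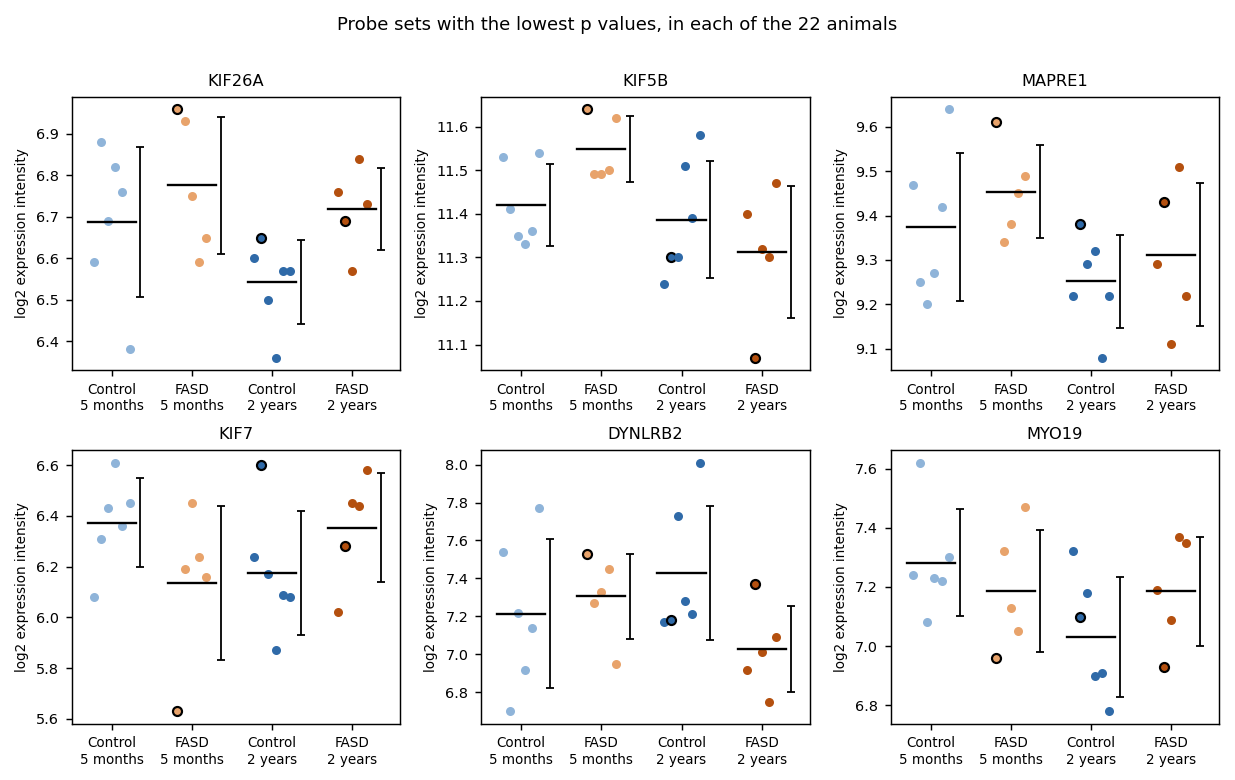
Log2 expression (vertical axes) of 6 members in each animal, by group (horizontal axes), with the mean as a horizontal line, the standard deviation as a bar and the 3 arrays that stood apart outlined in black. FASD animals of 2 years lie wholly under those of 5 months for KIF5B, and 4 of 5 FASD animals of 2 years lie above every control for KIF26A and below every control for DYNLRB2.

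The third comparison asked whether the alcohol difference itself changed between 5 months and 2 years. By limma 0 members passed an adjusted p of 0.05 for this interaction, and 0 of all rows did. At an unadjusted p under 0.05 the count was 1 member, 1.85%, beside 3% of all rows. It was higher, beside 2.11% of all rows, and 0 members were lower, beside 0.886%. The count was 0 without any 1 of 7 arrays, beside 2.2% to 3.05% of all rows, and 2 to 4 without any 1 of 7 others. It was 4 without FASD animal 6 at 5 months, 7.41% beside 3.35% of all rows in that fit. It was 3 without control animal 1 at 2 years, 5.56% beside 3.7%. The fits with 2 gave 3.7% beside 3.35% to 6.56% of all rows. The member called was KIF7, a kinesin that organizes Hedgehog signalling at the tip of the primary cilium.

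KIF7 read 5.63, 6.19, 6.45, 6.24 and 6.16 in FASD animals at 5 months, against a control lowest value of 6.08, median of 6.39 and highest of 6.61. At 2 years the FASD animals read 6.02, 6.28, 6.45, 6.44 and 6.58, against a control lowest value of 5.87, median of 6.13 and highest of 6.60. The groups overlapped at both ages. FASD minus control was -0.24 (SE 0.13) at 5 months and 0.18 (SE 0.13) at 2 years, a difference of 0.42 (SE 0.19, adjusted p of 0.9997 by limma). The lowest FASD value at 5 months and the highest control value at 2 years were both on arrays that stood apart, and without the 3 the difference was 0.39 (SE 0.16). KIF7 was then also called higher with alcohol at 2 years and lower with age in controls. The call for the interaction was lost without any 1 of 10 arrays, with values between 0.291 without FASD animal 2 at 5 months and 0.404 without control animal 3 at 5 months. The other 8 were control animals 4 and 6 at 5 months and control animals 4, 5 and 6 and FASD animals 3, 4 and 6 at 2 years.

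Within single ages, 0 members were called for alcohol at 5 months at an unadjusted p under 0.05, beside 4.83% of all rows (1.47% higher and 3.36% lower). At 2 years 1 was called, beside 6.05% of all rows, and it was lower, beside 3.35% of all rows that were lower and 2.69% that were higher. At an adjusted p of 0.05 by limma there were 0 members and 0 rows at either age. Once the 3 arrays that stood apart were left out, the counts were 3 at 5 months, a share of 5.56% beside 4.33% of all rows, and 8 at 2 years, 14.8% beside 14%, so both shares were above those of the table. The count at 5 months was 3 without FASD animal 6 of that age, 5.56% beside 5.92% of all rows. It was 2 without FASD animal 4 of that age, 3.7% beside 7.29%. It was 1 without control animal 1 or FASD animal 2 of that age, 1.85% beside 4.22% and 3.17%. It was 0 without any other array, beside 3.65% to 6.12%. The count at 2 years was 9 without control animal 2 of that age, 16.7% beside 14.5% of all rows. It was 0 without control animal 3 or FASD animal 1 or 4 of that age, beside 5.79%, 3.9% and 5.48%. It was 1 or 2 otherwise, 1.85% or 3.7% beside 3.43% to 6.72%.

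The member called at 2 years was DYNLRB2, a roadblock-type light chain of dynein that ciliated cells express strongly. It read 6.92, 7.37, 7.01, 6.75 and 7.09 in FASD animals of 2 years, against a control lowest value of 7.17, median of 7.25 and highest of 8.01. Of the 5 FASD animals 4 lay below every control. The difference was -0.40 (SE 0.18), with an adjusted p of 0.79 by limma and an exact permutation p of 0.0541. At 5 months it was 0.09 (SE 0.18), with FASD values of 7.53, 7.27, 7.33, 7.45 and 6.95 inside the control range of 6.70 to 7.77, and the difference between the ages was -0.50 (SE 0.25, adjusted p of 0.9997 by limma).

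Of 8 listed markers of ependyma and choroid plexus 2 had a row, FOLR1 and TEKT1, and their mean deviation at 2 years ran from -0.456 to -0.128 in FASD animals and from -0.145 to 0.309 in controls. Of 9 rows for axonemal dyneins and cilia, out of 27 genes listed, 7 were lower and 2 higher in FASD animals of 2 years, and their mean level ran from -0.15 to -0.033 in FASD animals, inside the control range of -0.223 to 0.347. TEKT1, which is on both lists, was the row among them with an unadjusted p under 0.05 and differed by -0.38 (SE 0.18) at 2 years, and FOXJ1 and TTR, which define these cells, were among the markers with no row. The part of such cells in the DYNLRB2 difference was not tested. Without control animal 6 at 2 years, whose value of 8.01 was the highest of all, the difference was -0.287 and not called, and the call was also lost without control animal 3 (-0.343) or FASD animal 1 (-0.375), 3 (-0.399) or 4 (-0.333) of that age. Without the 3 arrays that stood apart it was -0.54 (SE 0.19).

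Within single exposures, 2 members were called for age in controls at an unadjusted p under 0.05, beside 5.55% of all rows, and 1, KIF5B, in FASD animals, beside 6.99% (4.71% higher and 2.28% lower). At an adjusted p of 0.05 by limma there were 0 members and 0 rows in either exposure. In controls the count was 11 without the 3 arrays that stood apart, a share of 20.4% beside 14.9% of all rows and so above that of the table. It was 7 without control animal 2 at 2 years alone, 13% beside 11.7%. It was 0 without control animal 4 or 5 of that age, beside 5.43% and 4.47% of all rows. It was 1 without any of 11 other arrays, 1.85% beside 4.75% to 6.91%. In FASD animals it was 1 without the 3 arrays, 1.85% beside 6.05% of all rows. That member was DYNC1I2, which was lower, and KIF5B was no longer called. The count in FASD animals was 4 without FASD animal 6 at 5 months, 7.41% beside 7.74% of all rows. It was 3 without FASD animal 4 at 5 months or FASD animal 2 at 2 years, 5.56% beside 8.55% and 8.77%. It was 2 without control animal 6 at 5 months or FASD animal 1 or 4 at 2 years, 3.7% beside 7.28%, 5.65% and 7.57%.

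MYO19, a myosin that tethers mitochondria to actin, was the member called lower in controls at 2 years, beside 3.77% of all rows. The controls had a lowest value of 7.08, a median of 7.23 and a highest of 7.62 at 5 months, and 6.78, 7.003 and 7.32 at 2 years, so that the ages overlapped. The difference was -0.25 (SE 0.11), with an adjusted p of 0.8 by limma and an exact permutation p of 0.0476, and it was -0.0004 (SE 0.12) in FASD animals, whose values were 6.96, 7.32, 7.13, 7.05 and 7.47 at 5 months and 7.19, 6.93, 7.09, 7.37 and 7.35 at 2 years. The interaction was 0.25 (SE 0.16, adjusted p of 0.9997 by limma), so the 2 exposures were not shown to differ. Without the 3 arrays that stood apart the control difference was -0.26 (SE 0.11), and the call was lost without control animal 2 at 5 months (-0.183) or control animal 4 (-0.223), 5 (-0.226) or 6 (-0.201) at 2 years.

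The first row of KIF20B was the member called higher in controls at 2 years, beside 1.78% of all rows, by 0.19 (SE 0.09), with an adjusted p of 0.87 by limma and an exact permutation p of 0.0671. Its second row differed by -0.03 (SE 0.07). That row read only 3.13 to 3.53 over all animals, near the lowest value of the table, 2.82. A row at that level may be unable to show a change, so the 2 rows could not be compared. The call for the first row was lost without any 1 of 13 arrays, with values between 0.156 and 0.251 over all 22 such fits, and it was 0.18 (SE 0.09) and not called without the 3 arrays that stood apart.

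STMN4, a neuronal stathmin that binds tubulin dimers, had the largest difference of the 54 members between ages in FASD animals, -0.31 (SE 0.17, adjusted p of 0.71 by limma), with values of 11.33, 10.94, 10.56, 10.59 and 10.36 at 5 months and 10.27, 10.70, 10.59, 10.56 and 10.10 at 2 years. Only the highest 2 animals of 5 months lay above those of 2 years, and the highest was on an array that stood apart; without the 3 arrays the difference was -0.23 (SE 0.16). KIFC1, a minus-end directed kinesin of the mitotic spindle, had the lowest p among the members for alcohol at 5 months. Its FASD values of 5.87, 6.05, 5.82, 6.11 and 5.88 overlapped the control range of 5.69 to 5.94, and the difference was 0.14 (SE 0.08), with an adjusted p of 0.93 by limma and an exact permutation p of 0.0801. It was 0.16 (SE 0.08) and called without the 3 arrays.

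By role, the 2 plus-end binding rows had medians of 0.0785 for alcohol, both higher, and -0.0914 for age, both lower, beside -0.0069 and 0.0028 over all rows, and the 2 stathmin rows had 0.0326 and -0.0391. The kinesins had a median alcohol difference of 0.0092 with 12 of 22 rows higher, and a median age difference of 0.0009 with 11 higher. The 9 dynein rows had medians of -0.0221 and -0.0311, with 6 lower for alcohol and 5 lower for age, and 7 of the 9 were lower in FASD animals at 2 years (median -0.0375 beside 0.0101 over all rows). The 8 myosin rows had medians of 0.0137 and -0.0468, the 4 dynactins -0.0135 and -0.0074, and the 6 rows of the tubulin stem -0.0018 and 0.0201. TUBE1, the epsilon-tubulin of centrioles, had the largest alcohol difference of that stem at -0.14 (SE 0.07, adjusted p of 0.62 by limma). At 2 years TUBE1 differed by -0.19 and was not called, and without the 3 arrays that stood apart it was -0.26 (SE 0.11) and called.

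Genes that work with this family but lie outside its stems were read from 3 lists drawn up by gene name. Of 85 other microtubule and motor genes, 45 had 49 rows, and their median was -0.0226 for alcohol and -0.0265 for age. At an unadjusted p under 0.05, 0 rows were higher and 3 lower with alcohol, beside 2.43% and 6.01% of all rows, namely SPDL1, an adaptor of dynein (-0.24, SE 0.08), CLIP1, a plus-end tracking protein (-0.20, SE 0.08), and 1 of 2 rows of CEP170, a centrosome protein (-0.17, SE 0.06, the other row at -0.18, SE 0.10). With age 0 were higher and 4 lower, beside 4.68% and 4.89%, led by DCX, the microtubule-binding doublecortin of immature neurons (-0.37, SE 0.09, adjusted p of 0.14 by limma), with BICD1, VASH2 and KLC4 between -0.16 and -0.14. At an adjusted p of 0.05 by limma, 0 of these rows were called in either comparison.

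DCX is also one of 3 immature-neuron markers with a row, and the mean deviation of DCX, SOX4 and SOX11 ran from 0.0158 to 0.395 in young controls and from 0.215 to 0.425 in young FASD animals. In animals of 2 years it ran from -0.518 to -0.197 among the controls and from -0.574 to 0.54 among the FASD animals. The part of these cells in the age differences of the members was not tested. Of 26 conventional myosin chains and their partners, 14 had 18 rows, with 1 higher and 3 lower for alcohol at an unadjusted p under 0.05, beside 2.43% and 6.01% of all rows, ROCK1 (-0.28, its other row at -0.15) and MYH11 (0.15) among them. For age 1 was higher and 1 lower, MYH9 (0.16) and MYL6 (-0.17), beside 4.68% and 4.89%. The 3 rows of MYL6 disagreed, at -0.09, -0.17 and 0.02 for age. Of the 9 rows for axonemal dyneins and cilia, 0 were higher and 1 lower for alcohol, TEKT1 at -0.30 (SE 0.13), and 0 were higher and 1 lower for age, DNAH1 at -0.13.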

How the data were processed

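Total RNA of the left hippocampus of 24 male animals was hybridized to rhesus macaque arrays, all loaded on the same day. The deposited values are log2 intensities that the authors made by robust multi-array averaging (RMA), and 2 arrays that they discarded hold no values. No RMA version was given in the sources used here. The authors kept annotated probe sets detected in at least 6 arrays, and the one of highest mean per gene, which gave 11512 rows, though KIF20B and some other symbols still have several. Background correction and between-array scaling in RMA can shrink differences, and the platform annotation that names the rows can be old.

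Group means were fitted to all rows of the 22 arrays with limma 3.58.1 in R 4.3.3, with empirical Bayes moderation and Benjamini-Hochberg adjustment, and the script was tested on simulated data. Single values were tested by exact two-sided permutation of animals within age (213444 arrangements for alcohol) or within exposure (232848 for age). Intervals are 95% intervals of that fit, and their width is limited by the number of arrays. The labels do not say whether any animals shared a dam or a sire. By the paper's methods a dam might be offered ethanol and sucrose in different breeding cycles, and groups of dams lived with a single male. The p-values treat the animals as independent, and kinship could not be taken into account. The samples were grouped by their titles. Python 3.11.15 with matplotlib 3.10.9 drew the figures.

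The members and lists were chosen with earlier results of these data known. The genes named are the members at an unadjusted p under 0.05 for alcohol or age, the 3 of lowest p for the interaction, the 2 of lowest p in each comparison within an age or exposure, the row of highest mean in each role, well known neuronal members, and every further row of a gene so named, 18 rows in all. Outside the members at most 4 genes per list are named by lowest p, and cell markers are named as a check. MYO5B, KIF27 and the members that are called without the 3 arrays, or that lie at an end of a range, were named after their values were seen. Alternatives were array weights, median centring, quantile normalization, a replicate block, rows above the median expression, 1 row per symbol, an intensity trend with robust variances, the 2-way analysis of variance of the study's methods, and leaving out each animal or the 3 arrays that stood apart.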

Additional observations from a re-analysis of the deposited data

Results flagged for a closer look

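Among 72 groups of 5 or 6 animals examined for the named members, 5 held a single animal far from the others of its group, and chance alone gives about 1 in 20. KIF20B (first row) was 8.89 in control animal 6 at 2 years, against 9.17 to 9.32 in the other controls of that age. KIFC1 was 6.07 in control animal 2 at 2 years, against 5.73 to 5.85. DYNLL1 was 12.81 in FASD animal 2 at 5 months, against 13.18 to 13.26. DCTN1 was 10.39 in FASD animal 6 at 5 months, against 10.53 to 10.57. MYO9A was 9.49 in control animal 6 at 5 months, the animal with conflicting labels, against 9.21 to 9.30. The values of KIFC1 and DYNLL1 lay on 2 of the 3 arrays that stood apart.

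KIF7 had an alcohol difference of -0.24 at 5 months and 0.18 at 2 years, and the interaction term for this difference of 0.42 (SE 0.19) passed only without adjustment, with an adjusted p of 0.9997 by limma.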

How the results depend on the processing

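The number of arrays limits what can be seen: with 5 or 6 animals in a group, the 95% interval lay within ±0.25 for 24 and 23 of 54 members for alcohol at 5 months and 2 years. No difference of a named member at an unadjusted p under 0.05 changed sign under any alternative run, while the medians over the members, which lay close to 0, took either sign. Over the fits without 1 animal these medians ran from -0.0069 to 0.0116 for alcohol and from -0.021 to 0.005 for age. The alcohol median was 0.0198 with quantile normalization, and the age median was -0.0216 with array weights. The size of these moves was not tested. The counts of members at an unadjusted p under 0.05 moved more. For alcohol the count of 1 became 8 with array weights and 5 without the 3 arrays that stood apart. The 5 are 9.26% of the members beside 12.5% of all rows. The count became 2 with median centring, quantile normalization or the 2-way analysis of variance, 3.7% beside 8.18%, 8.45% and 8.15% of all rows. It was 0 with the replicate block, beside 8.64%, and 0 among the 23 members above the median expression, beside 7.52%. The 8 with array weights are 14.8% of the members beside 14.5% of all rows, and KIF26A, at 0.0895, was not among them. For age the count of 2 became 6 with array weights, 11.1% beside 14.1% of all rows. It became 6 without the 3 arrays, 11.1% beside 13.1%, and 3 with the replicate block, 5.56% beside 10.4%. For the interaction the count of 1 became 2, or 3.7%, with array weights, median centring, quantile normalization, the replicate block or without the 3 arrays. The share of all rows was then 6.29% with array weights and 5.81% without the 3 arrays. It was 2.91% with median centring, 2.85% with quantile normalization and 3.14% with the replicate block. The count was 0 in the analysis of variance, beside 3.19% of all rows, and 0 above the median expression, beside 2.52%. For alcohol at 5 months the count of 0 became 6 with array weights, 11.1% beside 10.1% of all rows. It became 3 without the 3 arrays, 5.56% beside 4.33%, and 1 with median centring or the replicate block, 1.85% beside 4.95% and 5.48%. For alcohol at 2 years the count of 1 became 3 with array weights, 5.56% beside 10.6% of all rows. It became 8 without the 3 arrays, 14.8% beside 14%, and 0 above the median expression, beside 4.83%. For age in controls the count of 2 became 5 with array weights, 9.26% beside 11.8% of all rows. It became 11 without the 3 arrays, 20.4% beside 14.9%. It was 1 in the analysis of variance, 1.85% beside 5.4%, and 1 above the median expression, 4.35% beside 5.16%. For age in FASD animals the count of 1 became 2 with quantile normalization, 3.7% beside 7.15% of all rows. It became 3 with the replicate block, 5.56% beside 7.51%. Leaving out 1 animal at a time gave 0 to 8 for alcohol, 1 to 6 for age, 0 to 4 for the interaction, 0 to 3 and 0 to 9 for alcohol at 5 months and 2 years, and 0 to 7 and 1 to 4 for age in controls and FASD animals. The cause of these changes was not tested, other than that the subset above the median expression holds fewer members.

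The replicate number was shared across groups but not shown to pair animals, since the correlation of deviations over 30 same-numbered pairs ran from -0.33 to 0.389 with 13 over 0.1, and it had a median of 0.0945 beside -0.0207 over 151 other pairs. With the number as a block KIF26A differed by 0.13 for alcohol and was not called, and STMN4 was called for the interaction (-0.39) and for age in FASD animals (-0.33).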
